A study of Mus musculus with 6 samples.

Results

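The genes of the major histocompatibility complex (MHC) and of antigen presentation were followed in CD8 T cells that had been stimulated through the T cell receptor. They were taken by name. Members were every gene whose symbol starts with H2-, the mouse name of the complex, apart from symbols ending in -ps, together with B2m, Tap1, Tap2, Tapbp, Tapbpl, Erap1, Nlrc5, Ciita and Cd74. This gave 51 of the 49492 genes in the table. Of these, 36 belong to the class I pathway, 11 to the class II pathway, and 4 carry an H2- symbol without falling in either. Libraries labelled KO came from NIK-CD4Cre-OT-I mice and libraries labelled WT from wild type OT-I mice, both on a C57/BL6 background and 6 to 8 weeks old. All cells carried the transgenic OT-I receptor, were naive splenic CD8 T cells at the start, and were kept for 24 hours on bound anti-CD3 with soluble anti-CD28 (1 µg/ml each). NIK, encoded by Map3k14, is the kinase that starts noncanonical NF-kB signalling, and Cd4-driven Cre acts in developing T cells. There were 3 libraries per genotype (KO replicates 4 to 6 and WT replicates 1 to 3), and the labels do not say whether each is a separate mouse, and a p-value here sets the genotype difference against library spread alone, which may be technical.

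Class I molecules are made by nearly all nucleated cells. A polymorphic heavy chain pairs with beta-2 microglobulin, the TAP transporter brings cytosolic peptides into the endoplasmic reticulum, tapasin and its relative TAPBPR edit the choice of peptide, and ERAP1 trims it. The NF-kB site in the class I promoters, interferon response elements and the transactivator NLRC5 drive these genes. Class II molecules are made by B cells, dendritic cells and macrophages under the transactivator CIITA. The invariant chain CD74 occupies their groove until H2-DM exchanges its remnant for peptide, and H2-O restrains H2-DM. Mouse T cells are known for high class I and for little or no class II. The OT-I receptor itself reads an ovalbumin peptide on the Kb molecule, the C57BL/6 product of H2-K1.

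The libraries held 41311346 to 47851445 counts each. At that depth a count of 3 equals 0.0627 to 0.0722 CPM (counts relative to the library total, scaled with TMM factors), for counting error only. Defining markers of CD8 T cells were high in every library: Cd8a stood at 538 to 591 CPM in KO libraries and 488 to 593 CPM in WT libraries. Cd4 stayed between 0.367 and 0.920 CPM. Map3k14 itself was at 56.6 ± 7.10 CPM in KO libraries and 61.5 ± 6.81 CPM in WT libraries (SD, n = 3 each; edgeR adjusted p = 0.806). A count over the whole gene does not show whether a conditional allele lost some exons, so directions below are between libraries as labelled. Both groups mixed libraries with high and with near-zero Xist. In bulk samples, fewer cells of a type and less RNA per cell cannot be told apart.

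Promoter windows were available for 35 members, 26 of class I and 8 of class II among them, from RefSeq on GRCm38.p6. Each runs from 250 bases before the annotated start to 50 bases into the gene. Those below are shown for the exact strings they hold. Those of H2-K1, H2-D1 and H2-Q7 hold the NF-kB string searched, and that of B2m holds the interferon string searched. Those of H2-Aa, H2-Eb1 and H2-Oa hold neither string. All are written 5′ to 3′ on the gene's own strand. Capitals mark GGGATTCCC (the NF-kB site of class I enhancer A), GAAANNGAA (an interferon response element), TGACG and CCAAT, each searched on both strands. TGACG is the core of a cyclic AMP response element, as in the X box, and CCAAT is the string of the Y box. A marked run of either string need not be an X or Y box. H2-K1 lies at chr17:34000298-34000597 (minus strand), H2-D1 at chr17:35262844-35263143 (plus strand), H2-Q7 at chr17:35438905-35439204 (plus strand) and B2m at chr2:122147437-122147736 (plus strand). H2-Aa lies at chr17:34287774-34288073 (minus strand), H2-Eb1 at chr17:34305617-34305916 (plus strand) and H2-Oa at chr17:34092129-34092428 (plus strand).
H2-K1: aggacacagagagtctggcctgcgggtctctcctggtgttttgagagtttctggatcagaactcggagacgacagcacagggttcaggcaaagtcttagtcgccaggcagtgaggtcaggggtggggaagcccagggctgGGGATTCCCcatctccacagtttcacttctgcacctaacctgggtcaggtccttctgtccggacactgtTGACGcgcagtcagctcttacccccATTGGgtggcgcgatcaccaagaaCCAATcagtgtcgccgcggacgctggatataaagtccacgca
H2-D1: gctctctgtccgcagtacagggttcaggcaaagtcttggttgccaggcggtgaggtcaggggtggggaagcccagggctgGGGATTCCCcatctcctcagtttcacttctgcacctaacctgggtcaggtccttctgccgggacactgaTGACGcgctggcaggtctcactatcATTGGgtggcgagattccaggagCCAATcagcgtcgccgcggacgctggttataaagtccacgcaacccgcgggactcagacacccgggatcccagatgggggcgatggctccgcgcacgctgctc
H2-Q7: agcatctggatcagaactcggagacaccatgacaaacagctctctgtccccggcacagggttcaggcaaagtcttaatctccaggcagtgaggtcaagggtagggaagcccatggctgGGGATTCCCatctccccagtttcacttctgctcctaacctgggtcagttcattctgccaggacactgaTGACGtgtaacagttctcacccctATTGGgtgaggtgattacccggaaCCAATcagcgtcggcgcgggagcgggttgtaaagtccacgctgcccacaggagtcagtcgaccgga
B2m: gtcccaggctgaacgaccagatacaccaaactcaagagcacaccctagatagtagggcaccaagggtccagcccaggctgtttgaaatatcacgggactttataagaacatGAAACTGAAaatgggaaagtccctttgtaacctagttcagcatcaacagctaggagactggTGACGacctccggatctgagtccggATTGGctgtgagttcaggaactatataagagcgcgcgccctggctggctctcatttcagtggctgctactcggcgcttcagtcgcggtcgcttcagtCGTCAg
H2-Aa: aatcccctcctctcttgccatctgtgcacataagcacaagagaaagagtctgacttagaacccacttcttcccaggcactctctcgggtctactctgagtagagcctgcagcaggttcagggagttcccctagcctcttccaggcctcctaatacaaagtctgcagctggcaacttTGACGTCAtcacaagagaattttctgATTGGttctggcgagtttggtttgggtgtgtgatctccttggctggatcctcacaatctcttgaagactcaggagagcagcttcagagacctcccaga
H2-Eb1: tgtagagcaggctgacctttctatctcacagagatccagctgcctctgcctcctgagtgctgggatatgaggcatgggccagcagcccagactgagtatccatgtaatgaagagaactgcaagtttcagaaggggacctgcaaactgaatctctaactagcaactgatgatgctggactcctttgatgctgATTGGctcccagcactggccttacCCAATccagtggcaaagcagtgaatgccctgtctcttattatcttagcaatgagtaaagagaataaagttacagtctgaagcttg
H2-Oa: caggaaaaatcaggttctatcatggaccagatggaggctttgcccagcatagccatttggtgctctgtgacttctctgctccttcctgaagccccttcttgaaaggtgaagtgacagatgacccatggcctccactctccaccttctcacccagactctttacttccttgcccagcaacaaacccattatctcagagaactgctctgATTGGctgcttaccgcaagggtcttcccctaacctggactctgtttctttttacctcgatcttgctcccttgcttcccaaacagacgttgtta

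The exact sequence GGGATTCCC was present in the windows of 4 of 26 class I members, H2-K1, H2-D1, H2-Q6 and H2-Q7, and in 0 of 8 class II members. It stood in 116 of all 32851 windows (0.353%). It began 110 bases before the start in the H2-K1 window shown, 170 in H2-D1, 172 in H2-Q6 and 132 in H2-Q7. The exact interferon string GAAANNGAA, on either strand, occurred in 4 class I windows (B2m, Erap1, H2-T23 and H2-T22), 0 class II windows and 8.56% of all windows. Other forms of the interferon response element were not searched. Absence of this string, as from the H2-K1, H2-D1 and H2-Q7 windows, therefore does not show that a window lacks such an element. CCAAT in either orientation occurred in 22 of 26 class I and 8 of 8 class II windows, against 37.4% of all windows, and TGACG in 13 class I windows and 1 class II window, against 20.8% of all. In H2-Aa the TGACG matches on the 2 strands overlap to give TGACGTCA. A match is a run of letters and was not tested as a binding site, and windows of neighbouring H2 genes resemble each other because the genes are duplicates.

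Class I genes were among the abundant messages of these cells and stood at similar levels in both genotypes. Together the 36 class I pathway genes took 0.693%, 0.771% and 0.793% of all counts in KO replicates 4, 5 and 6, and 0.649%, 0.771% and 0.761% in WT replicates 1, 2 and 3. The groups overlapped, with WT replicate 1 lowest and KO replicate 6 highest. Of the 36, 22 passed the low-count filter. EdgeR called 0 of them at an adjusted p under 0.05, where 0.00659% of all 15186 tested genes were called. At an unadjusted p under 0.05, 0 were higher and 1 was lower in KO libraries, against a background of 3.82% higher and 3.44% lower, and DESeq2 called 0 (background 0.586%). The median log2 fold (KO over WT) of the 22 was 0.04, with 15 positive and 7 negative estimates, beside 0.01 for all tested genes. The median was -0.03 without WT replicate 1 and -0.02 without KO replicate 6.

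The classical heavy chains did not differ beyond the spread between libraries. H2-K1 (chromosome 17, 33996017 to 34000347, minus strand, GRCm38), which encodes Kb, had 1405, 1594 and 1602 CPM in KO replicates 4, 5 and 6, and 1325, 1549 and 1557 CPM in WT replicates 1, 2 and 3. Its fold was 1.04, with a 95% interval of 0.903 to 1.19 (edgeR adjusted p = 0.893). H2-D1 (chromosome 17, 35262730 to 35267499, plus strand), which encodes Db, had 1036, 1129 and 1109.5 CPM in KO replicates 4, 5 and 6, and 966 CPM, 1163 CPM and 1145 CPM in WT replicates 1, 2 and 3. For both genes WT replicate 1 was the lowest library and the groups overlapped. The H2-D1 fold was 1.00 (interval 0.874 to 1.14; edgeR adjusted p = 0.999). The H2-D1 to H2-K1 count ratio stayed between 0.693 and 0.751 over the 6 libraries, a spread of 1.08-fold. Heavy chain genes are near-copies of each other, so how the authors' counting divided shared reads among them is uncertain for every H2 heavy chain named here. Exons of 14 members also overlap another annotated gene, and reads there may come from either gene.

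**Figure D1:**
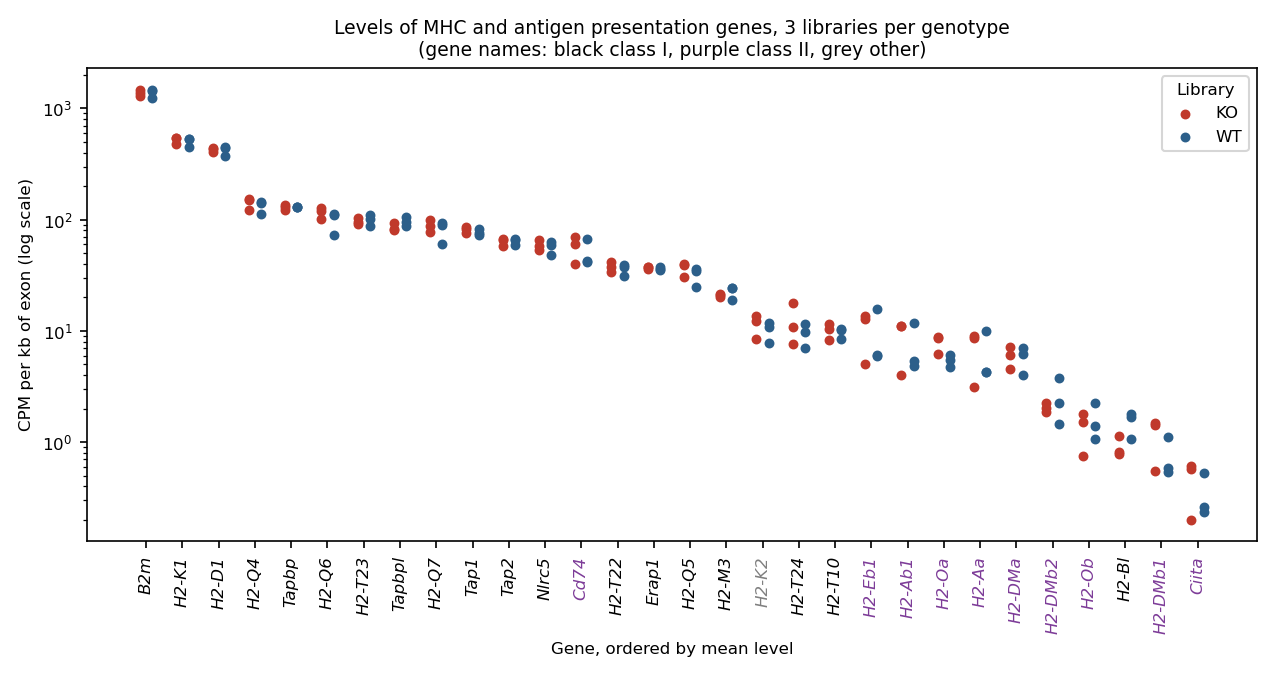
Level of each gene with a mean of at least 1 CPM, per kb of exon on a log axis, with 1 point per library (KO left, WT right of each position; 3 libraries each). Class I genes (black names) fill most of the upper ranks from B2m at a mean of 1383 CPM per kb, and the class II transactivator Ciita is lowest at 0.402 CPM per kb.

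The light chain and the peptide-loading genes did not differ beyond the spread between libraries either. B2m (chromosome 2, 122147686 to 122153083, plus strand), the light chain of every class I molecule, had 1109 CPM, 1195 CPM and 1271 CPM in KO replicates 4, 5 and 6, and 1059 CPM, 1262 CPM and 1239 CPM in WT replicates 1, 2 and 3. Per kb of exon it was the most abundant member, at a mean level of 1383 CPM per kb, followed by H2-K1 at 512 and H2-D1 at 423 CPM per kb. Its fold was 1.00 (interval 0.873 to 1.15; edgeR adjusted p = 0.991), with overlapping groups. Tap1 (chromosome 17, 34187553 to 34197225), one chain of the peptide transporter, had 417 CPM, 452 CPM and 467 CPM in KO replicates 4, 5 and 6, and 402 CPM, 450.4 CPM and 419 CPM in WT replicates 1, 2 and 3. Its partner chain Tap2 had 221 CPM, 256 CPM and 248 CPM in KO replicates 4, 5 and 6, and 224 CPM, 256 CPM and 246 CPM in WT replicates 1, 2 and 3. Both chains overlapped between the groups, with folds of 1.05 for Tap1 (interval 0.945 to 1.17; edgeR adjusted p = 0.799) and 0.998 for Tap2 (interval 0.885 to 1.13; edgeR adjusted p = 0.995). Exons of Tap1 overlap those of Psmb9, an immunoproteasome subunit gene on the opposite strand, which stood at 137 CPM in both groups (SD 10.2 in KO libraries and 11.0 in WT libraries).

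Tapbp, which encodes the loading chaperone tapasin, had 447 CPM, 495 CPM and 474 CPM in KO replicates 4, 5 and 6, and 469.6 CPM, 475 CPM and 468 CPM in WT replicates 1, 2 and 3. The 3 WT libraries lay inside the range of the 3 KO libraries (fold 1.00, interval 0.920 to 1.09; edgeR adjusted p = 0.990). Erap1, the trimming peptidase, averaged 269 ± 4.74 CPM in KO libraries and 265 ± 9.71 CPM in WT libraries (SD, n = 3 each; edgeR adjusted p = 0.906). Tapbpl, which encodes TAPBPR, averaged 201 ± 14.6 CPM in KO libraries and 227 ± 20.6 CPM in WT libraries, a fold of 0.886 with an interval of 0.777 to 1.01 (edgeR adjusted p = 0.697, unadjusted p = 0.0647). It had the smallest p of the 6 light chain and loading genes, and its groups overlapped. Nlrc5 (chromosome 8, 94434356 to 94527272, plus strand), the class I transactivator, had 454 CPM, 492 CPM and 553 CPM in KO replicates 4, 5 and 6, and 409.7 CPM, 531 CPM and 507 CPM in WT replicates 1, 2 and 3. Its lowest and highest libraries, WT replicate 1 and KO replicate 6, were also those of H2-K1 and B2m, and its fold was 1.04 (interval 0.859 to 1.25; edgeR adjusted p = 0.927).

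Non-classical heavy chains ranged from abundant to undetected. Of 27 such genes, 13 passed the filter, 10 were at 0 counts in every library, and those at 0 include the H2-M10 genes, known from vomeronasal neurons. The Qa-2 genes H2-Q6 and H2-Q7 had means of 242 ± 27.6 CPM and 374 ± 47.2 CPM in KO libraries, and of 206 ± 45.5 CPM and 344 ± 77.5 CPM in WT libraries (SD, n = 3 each). H2-Q4 averaged 370.2 ± 44.6 CPM in KO libraries and 345 ± 47.6 CPM in WT libraries. H2-T23, whose product Qa-1 is the ligand of the NKG2A inhibitory receptor, averaged 279 ± 17.2 CPM in KO libraries and 289 ± 34.3 CPM in WT libraries. None of these 4 differed beyond the spread between libraries, with edgeR adjusted p from 0.759 for H2-Q6 to 0.903 for H2-T23.

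Lower in the range, H2-T22 and H2-T10, ligands of some gamma-delta T cell receptors, averaged 129 and 34.4 CPM in KO libraries, and 123 and 33.2 CPM in WT libraries. H2-Q5, annotated like H2-T10 as a polymorphic pseudogene, averaged 58.1 CPM in KO libraries and 50.6 CPM in WT libraries. H2-M3, which presents formylated peptides, averaged 30.1 ± 1.11 CPM in KO libraries and 32.2 ± 4.29 CPM in WT libraries (SD, n = 3 each; edgeR adjusted p = 0.817). H2-T24 had 23.7 CPM, 16.5 CPM and 38.6 CPM in KO replicates 4, 5 and 6, and 15.4 CPM, 25.2 CPM and 21.4 CPM in WT replicates 1, 2 and 3, the widest spread (2.50-fold) among class I genes above 10 CPM. The edgeR adjusted p of these 5 genes ran from 0.790 to 0.942. H2-K2, a transcribed class I pseudogene that is counted in neither class, averaged 19.7 CPM in KO libraries and 17.5 CPM in WT libraries.

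H2-Bl was the 1 class I member with an unadjusted p under 0.05. This polymorphic pseudogene (chromosome 17, 36080115 to 36084223, minus strand) had 1.38 CPM, 1.91 CPM and 1.32 CPM in KO replicates 4, 5 and 6, and 1.80 CPM, 3.00 CPM and 2.81 CPM in WT replicates 1, 2 and 3. The groups overlapped, because KO replicate 5 lay above WT replicate 1. The log2 fold was -0.72 (SE 0.25), with an unadjusted p of 0.0220 and an edgeR adjusted p of 0.628. These values rest on 55 to 137 counts per library, and the unadjusted p was no longer under 0.05 without KO replicate 4, KO replicate 6, WT replicate 2 or WT replicate 3.

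The 4 genes with the exact NF-kB site had log2 folds from 0.00 (H2-D1) to 0.24 (H2-Q6), and the smallest unadjusted p among them was 0.202. The 95% interval was 0.895 to 1.55 for the H2-Q6 fold and 0.818 to 1.44 for the H2-Q7 fold. In all, 18 of the 22 tested class I members had a 95% interval that stayed within a 2-fold change in either direction.

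**Figure D2:**
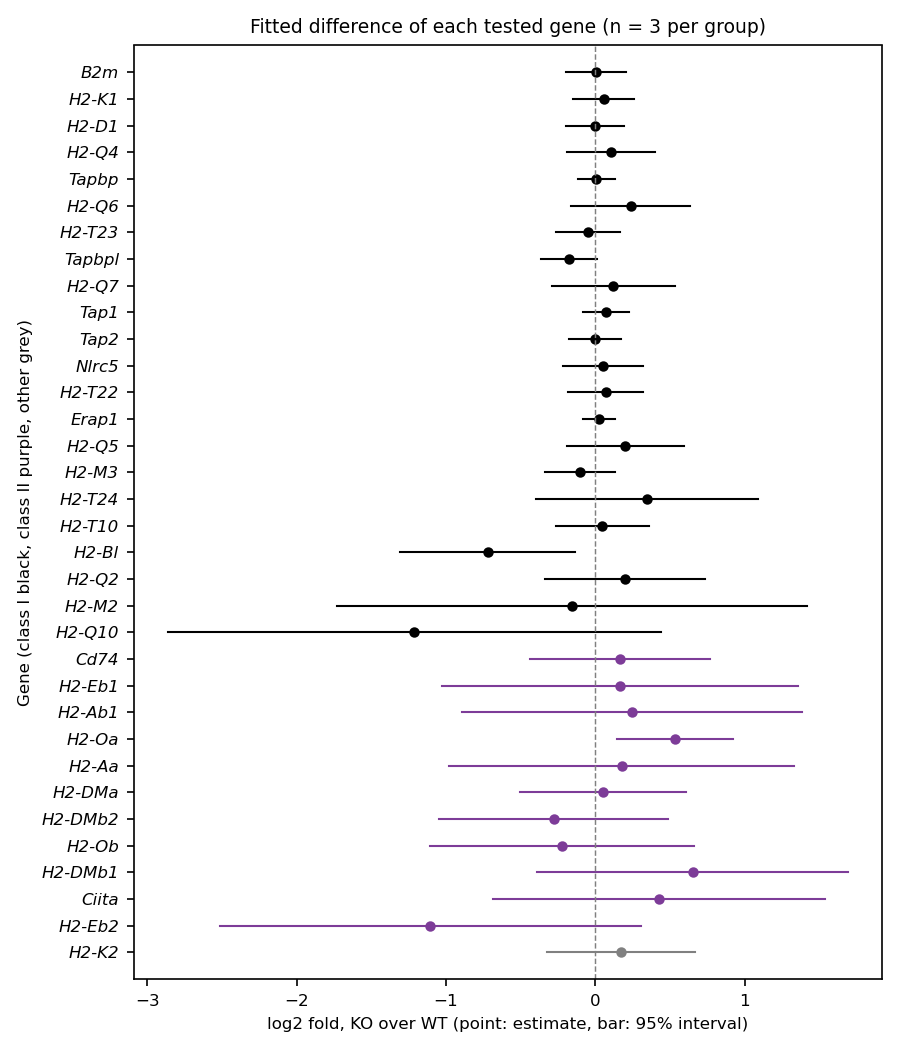
Log2 fold (KO over WT) of each tested member with its 95% interval, class I in black, class II in purple and H2-K2 in grey, each class ordered by level per kb. Intervals of abundant class I genes such as H2-K1 (fold 0.903 to 1.19) are narrow, those of class II chains such as H2-Aa (0.508 to 2.52) are wide, and H2-Oa and H2-Bl are the 2 genes whose interval does not reach 0 on this axis.

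Many class I genes ranked the libraries alike. WT replicate 1 was the lowest of the 6 libraries for 14 of 22 tested class I members, where it was lowest for 16.5% of all tested genes, and KO replicate 6 was the highest for 12 of 22, against 15.4% of all tested genes. Both libraries were chosen after the values were seen, and near-copy heavy chain genes are not independent of each other. Interferon-stimulated genes were listed beside the class I genes because they share the interferon input. Their summed level was 2891 CPM, 3350 CPM and 3525 CPM in KO replicates 4, 5 and 6, and 2795 CPM, 2979 CPM and 2724 CPM in WT replicates 1, 2 and 3. Gbp2 alone gave 1019, 1236 and 1091 CPM of the sum in KO replicates 4, 5 and 6, and 1087, 1013 and 847 CPM in WT replicates 1, 2 and 3. Of the 20 genes listed, 19 were estimated higher in KO libraries, against 52.4% of all tested genes, and the list's median log2 fold was 0.51. WT replicate 1 was the lowest library for 12 of the 20, so their signs are not independent of each other. Averaged over the 20, log2 of CPM plus 0.5, centred per gene, was 0.13, -0.06 and 0.76 in KO replicates 4, 5 and 6. In WT replicates 1, 2 and 3 that average was -0.48, -0.05 and -0.30, so KO replicate 5 lay just under WT replicate 2. An unadjusted p under 0.05 in edgeR was found for 7 of the 20, all higher, against 3.82% of all tested genes. EdgeR called 0 of the 20 after adjustment, and DESeq2 called 4 (Ifit1, Oas1a, Cxcl10 and Iigp1), against 0.586% of all tested genes. Ifng, the cytokine that induces both MHC classes, had 67.5 CPM, 24.2 CPM and 65.0 CPM in KO replicates 4, 5 and 6, and 69.9 CPM, 108 CPM and 154 CPM in WT replicates 1, 2 and 3. Every KO library lay under every WT library for Ifng (log2 fold -1.08, SE 0.45; edgeR adjusted p = 0.687), as in 6.07% of all tested genes. All 22 tested class I members overlapped between the groups, where 12.8% of all tested genes did not overlap. The part of interferon in the class I levels was not tested.

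Other genes of the class I pathway were likewise not called. Of 23 such genes, all tested, edgeR and DESeq2 called 0, 0 passed an unadjusted p under 0.05 in edgeR, and the median log2 fold was 0.02. Their groups did not overlap in 2 genes that were higher and 1 that was lower, where the background is 6.68% higher and 6.07% lower. Irf1, an interferon-induced factor that binds class I promoters, averaged 440 ± 48.8 CPM in KO libraries and 409.5 ± 30.0 CPM in WT libraries (SD, n = 3 each; edgeR adjusted p = 0.798). Irf1 was lowest in WT replicate 1 and highest in KO replicate 6, and WT replicate 1 was the lowest library for 9 of the 23 genes. Calr, Canx, Pdia3, Pdia4 and Thop1 went the other way, with WT replicate 1 highest.

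Class II messages were present at low levels and varied widely between libraries within both genotypes. The 11 class II pathway genes together took 0.0229%, 0.0148% and 0.0266% of counts in KO replicates 4, 5 and 6, and 0.0145%, 0.0267% and 0.0158% in WT replicates 1, 2 and 3. Both groups held high and low libraries: KO replicates 4 and 6 and WT replicate 2 were high. All 11 passed the filter. EdgeR and DESeq2 called 0, and at an unadjusted p under 0.05 there was 1 higher (H2-Oa) and 0 lower in KO libraries, against 3.82% higher and 3.44% lower among all tested genes. The median log2 fold was 0.16, with 8 positive and 3 negative estimates, beside 0.01 for all tested genes. The median was 0.54 without WT replicate 2 but -0.03 without WT replicate 1 and -0.01 without KO replicate 6.

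The 3 abundant class II chain genes ranked the libraries alike, and the low-count H2-Eb2 did not. H2-Aa (chromosome 17, 34282744 to 34287823, minus strand), the alpha chain of I-A, had 34.5 CPM, 12.0 CPM and 33.1 CPM in KO replicates 4, 5 and 6, and 16.1 CPM, 37.9 CPM and 16.4 CPM in WT replicates 1, 2 and 3. Its partner H2-Ab1, the beta chain, had 28.4 CPM, 10.4 CPM and 28.3 CPM in KO replicates 4, 5 and 6, and 12.4 CPM, 30.4 CPM and 13.7 CPM in WT replicates 1, 2 and 3. H2-Eb1, the I-E beta chain, had 24.7 CPM, 9.75 CPM and 26.4 CPM in KO replicates 4, 5 and 6, and 11.7 CPM, 30.8 CPM and 11.8 CPM in WT replicates 1, 2 and 3. For all 3 chains the order was the same at the ends, with WT replicate 2 highest and KO replicate 5 lowest. The count ratio of H2-Aa to H2-Ab1 varied by 1.13-fold over the 6 libraries and that of H2-Aa to H2-Eb1 by 1.14-fold, while H2-Aa itself varied by 3.16-fold. The folds were 1.13 for H2-Aa (interval 0.508 to 2.52; edgeR adjusted p = 0.940), 1.19 for H2-Ab1 (0.539 to 2.61; edgeR adjusted p = 0.912) and 1.12 for H2-Eb1 (0.490 to 2.56; edgeR adjusted p = 0.946). H2-Eb2, a second I-E beta chain gene, had 17, 16 and 20 counts in KO replicates 4, 5 and 6, and 14, 76 and 28 counts in WT replicates 1, 2 and 3. It shared the high WT replicate 2 but was not high in KO replicates 4 and 6, and the count ratio of H2-Aa to H2-Eb2 varied by 4.26-fold. It had a fold of 0.465 (interval 0.175 to 1.23; edgeR adjusted p = 0.707).

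Cd74, the invariant chain, was the most abundant class II pathway gene. It had 101 CPM, 67.0 CPM and 117 CPM in KO replicates 4, 5 and 6, and 70.8 CPM, 113 CPM and 70.5 CPM in WT replicates 1, 2 and 3. The order of libraries resembled that of H2-Aa, but the spread was narrower at 1.75-fold, and the count ratio of Cd74 to H2-Aa was highest, 5.59, in KO replicate 5, where H2-Aa was lowest. Its fold was 1.12 (interval 0.738 to 1.70; edgeR adjusted p = 0.892). Ciita (chromosome 16, 10480059 to 10528418, plus strand), the class II transactivator, had 5.52 CPM, 1.91 CPM and 5.78 CPM in KO replicates 4, 5 and 6, and 2.52 CPM, 5.04 CPM and 2.27 CPM in WT replicates 1, 2 and 3. It was high in the same 3 libraries as H2-Aa, and its fold was 1.34 (interval 0.623 to 2.90; edgeR adjusted p = 0.840). In all, 6 of the 11 class II genes had KO replicates 4 and 6 and WT replicate 2 as their 3 highest libraries, a pattern chosen after the values were seen and held by 3.53% of all tested genes.

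Markers of cells that make class II were detected and moved between libraries. The 10 B cell markers, all detected, summed to 30.7 CPM, 33.8 CPM and 44.4 CPM in KO replicates 4, 5 and 6, and to 26.1 CPM, 81.9 CPM and 52.2 CPM in WT replicates 1, 2 and 3. All 10 B cell markers were estimated lower in KO libraries, against 47.6% of all tested genes. None had an unadjusted p under 0.05 in edgeR, where 3.44% of all tested genes were lower at such a p. WT replicate 1 was the lowest library for 9 of the 10, so their signs are not independent of each other. The 14 dendritic cell and myeloid markers summed to 65.1 CPM, 37.3 CPM and 74.3 CPM in KO replicates 4, 5 and 6, and to 38.4 CPM, 59.3 CPM and 41.6 CPM in WT replicates 1, 2 and 3. Of the 10 of these 14 that were tested, 9 were estimated higher in KO libraries, against 52.4% of all tested genes. Lyz2 alone had an unadjusted p under 0.05 in edgeR, where 3.82% of all tested genes were higher at such a p. The 3 libraries that were high for H2-Aa were also the 3 highest for the dendritic cell and myeloid sum, of which Mpeg1 alone gave 30.4, 15.5 and 38.3 CPM in KO replicates 4, 5 and 6, and 17.7, 30.9 and 19.6 CPM in WT replicates 1, 2 and 3. Of the 10 tested markers, 4 (Itgax, Csf1r, Cd68 and Mpeg1) had KO replicates 4 and 6 and WT replicate 2 as their 3 highest libraries. This pattern, chosen after the values were seen, was held by 3.53% of all tested genes. Others went another way: Adgre1 was lowest in WT replicate 2 at 0.328 CPM, Flt3 was lowest in KO replicate 4 at 2.22 CPM, Lyz2 and Clec9a were lower in WT replicate 2 than in WT replicate 1, and Zbtb46 stayed between 5.66 and 8.84 CPM. WT replicate 2 was the highest library for the B cell marker sum, and 0 of the 10 B cell markers held that pattern of 3 highest libraries. Xcr1 had 1 count in all 6 libraries together, Cd14 had 1 to 7 counts in each and Fcgr1 0 to 18. Itgax, which encodes the dendritic cell integrin CD11c, had 7.19 CPM, 1.61 CPM and 6.64 CPM in KO replicates 4, 5 and 6, and 2.87 CPM, 5.19 CPM and 3.93 CPM in WT replicates 1, 2 and 3. Activated T cells can also express Itgax, and the part of other cells in the class II levels was not tested.

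**Figure D3:**
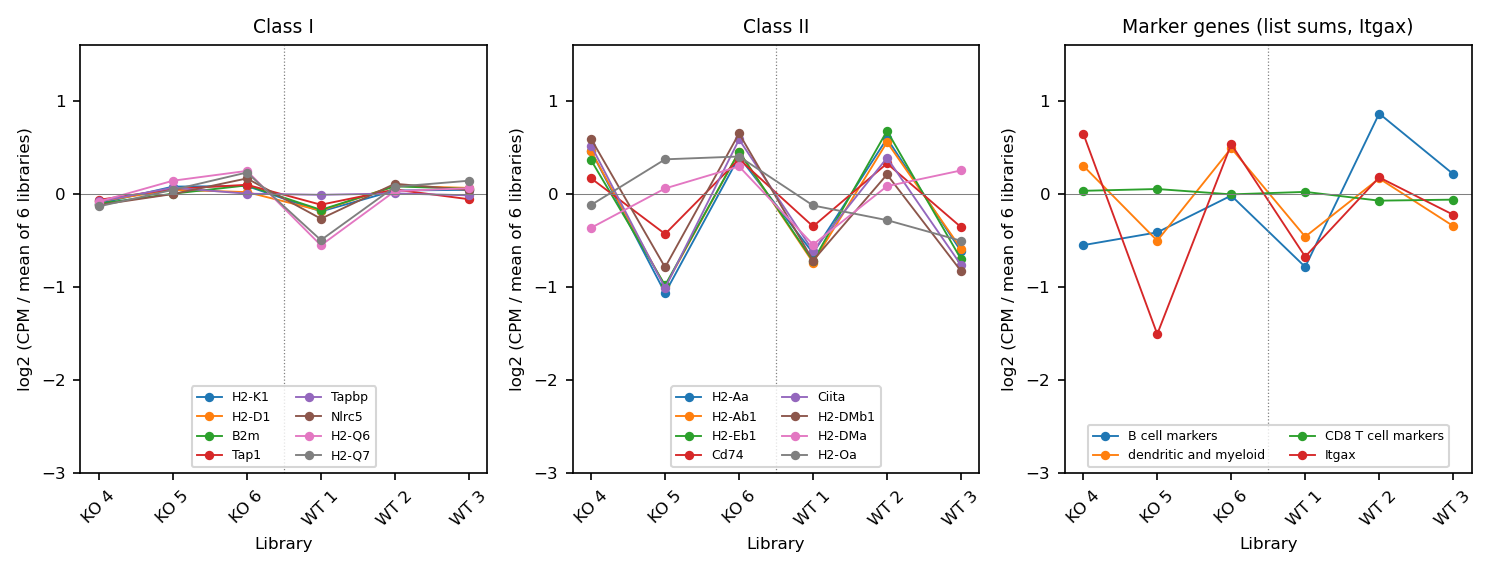
Level of class I genes (left), class II genes (middle) and marker genes (right) in each library, as the log2 of CPM over the gene's mean of the 6 libraries; lines only join the values of 1 gene or list sum. H2-K1, H2-D1, B2m, Tap1 and Tapbp vary little, while H2-Q6 and H2-Q7 spread 1.74-fold and 1.66-fold, near Cd74 at 1.75-fold. H2-Aa, H2-Ab1, H2-Eb1, Cd74 and Ciita are high in KO 4, KO 6 and WT 2, and H2-Oa and H2-DMa do not follow them.

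The H2-O and H2-DM genes, which govern peptide exchange, did not all follow H2-Aa. H2-Oa (chromosome 17, 34092340 to 34095234, plus strand), the alpha chain of the H2-DM inhibitor H2-O, had 8.65 CPM, 12.2 CPM and 12.4 CPM in KO replicates 4, 5 and 6, and 8.62 CPM, 7.73 CPM and 6.63 CPM in WT replicates 1, 2 and 3. Every KO library lay above every WT library, although KO replicate 4 and WT replicate 1 differed by less than 1%. It was the 1 member of 34 tested whose groups did not overlap, where 12.8% of all tested genes did not overlap. The mean was 11.1 ± 2.10 CPM in KO libraries and 7.66 ± 0.999 CPM in WT libraries (SD, n = 3 each), a fold of 1.45 (interval 1.10 to 1.89) with an unadjusted p of 0.0140. With adjustment over all tested genes it was not called, with an edgeR adjusted p of 0.612 and a DESeq2 adjusted p of 0.225. The 2 members with an unadjusted p under 0.05, H2-Oa and H2-Bl, stand beside a background of 7.26% of tested genes. DESeq2 put 3 members at such a p, Tapbpl being the addition, beside 6.99% of all tested genes. The edgeR count was 7 members without WT replicate 1, where 14.9% of all tested genes passed, and 0 without KO replicate 6. H2-Oa no longer had an unadjusted p under 0.05 without KO replicate 5 or without KO replicate 6.

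The count ratio of H2-Oa to H2-Aa ranged from 0.204 in WT replicate 2 to 1.02 in KO replicate 5, a spread of 4.98-fold. An exon of H2-Oa overlaps BC051537 on the opposite strand, and without a stated strand setting their reads cannot be told apart. BC051537 had 21, 26 and 32 counts in KO replicates 4, 5 and 6, and 17, 16 and 12 in WT replicates 1, 2 and 3. H2-Ob, the H2-O beta chain, had 4.06 CPM, 8.25 CPM and 9.65 CPM in KO replicates 4, 5 and 6, and 5.77 CPM, 12.2 CPM and 7.60 CPM in WT replicates 1, 2 and 3. Its groups overlapped widely (fold 0.858, interval 0.465 to 1.58; edgeR adjusted p = 0.898), so the 2 chains of H2-O had estimates of opposite sign, a difference that was not tested.

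H2-DMa, the H2-DM alpha chain, averaged 20.6 ± 4.60 CPM in KO libraries and 19.9 ± 5.33 CPM in WT libraries (SD, n = 3 each; edgeR adjusted p = 0.964). Its exons overlap those of Brd2 on the opposite strand, which had 366 ± 15.3 CPM in KO libraries and 364 ± 13.0 CPM in WT libraries. Without a stated strand setting, reads in the shared stretch cannot be told apart, so the H2-DMa level may hold Brd2 reads. As counted, the beta chain genes were lower per kb of exon. H2-DMa had a mean level of 5.87 CPM per kb, H2-DMb2 2.28 CPM per kb and H2-DMb1 0.955 CPM per kb. H2-DMb1 had 2.42 CPM, 0.932 CPM and 2.53 CPM in KO replicates 4, 5 and 6, and 0.980 CPM, 1.86 CPM and 0.906 CPM in WT replicates 1, 2 and 3, high in the same 3 libraries as H2-Aa. H2-DMb2 averaged 3.60 ± 0.338 CPM in KO libraries and 4.37 ± 2.07 CPM in WT libraries. Neither beta chain was called, with edgeR adjusted p of 0.750 for H2-DMb1 and 0.849 for H2-DMb2.

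**Figure D4:**
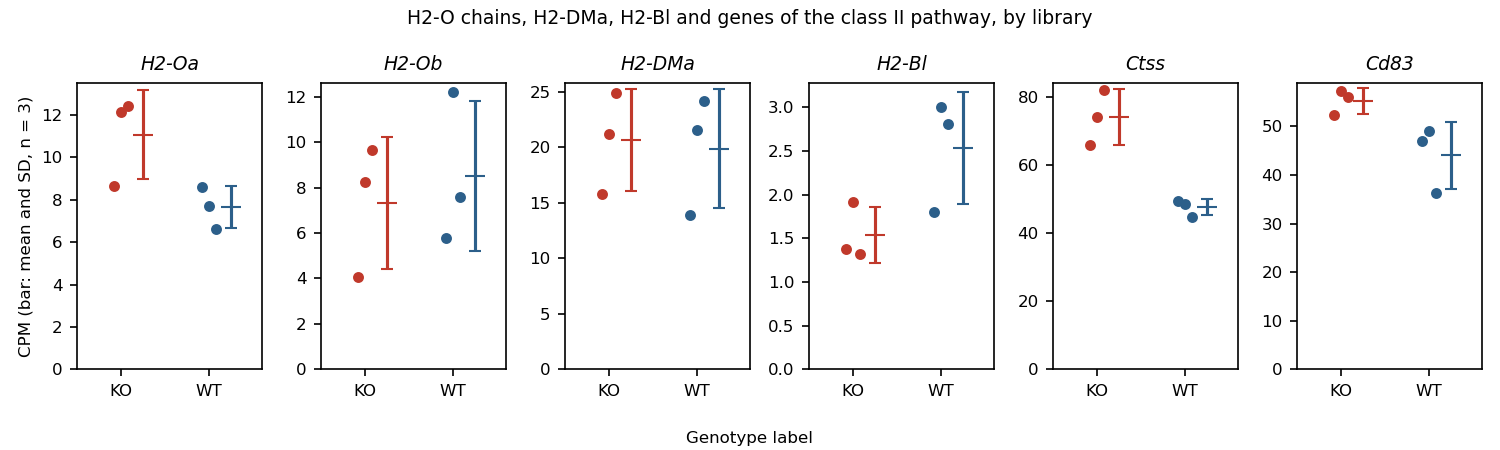
CPM of H2-Oa, H2-Ob, H2-DMa, H2-Bl, Ctss and Cd83 in each library (points) with the mean and SD of each group (n = 3), KO left and WT right in each panel, on axes that start at 0. KO points lie above all WT points for H2-Oa, Ctss and Cd83, and the groups overlap for H2-Ob, H2-DMa and H2-Bl.

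Of the other class II pathway genes, 19 of 21 on the list are in the table, the other 2 being later names of March1 and March8, and all 19 were tested. EdgeR called 0, while 3 genes (Ctss, Cd83 and Creb1) were higher and 0 lower in KO libraries at an unadjusted p below 0.05, against 3.82% and 3.44% of all tested genes. DESeq2 called 1 (Ctss), against 0.586% of all tested genes. Ctss, the protease that degrades the invariant chain, had 65.8 CPM, 74.2 CPM and 82.1 CPM in KO replicates 4, 5 and 6, and 49.3 CPM, 48.5 CPM and 44.8 CPM in WT replicates 1, 2 and 3. All KO libraries were above all WT libraries, with a fold of 1.56 (interval 1.35 to 1.79), an edgeR adjusted p of 0.357 and a DESeq2 adjusted p of 3.94e-07. Cd83, which stabilises class II at the surface of antigen-presenting cells, averaged 55.2 ± 2.63 CPM in KO libraries and 44.1 ± 6.90 CPM in WT libraries (SD, n = 3 each; edgeR adjusted p = 0.634). Creb1, a factor that binds the X box element, averaged 129 ± 5.80 CPM in KO libraries and 117 ± 3.48 CPM in WT libraries (edgeR adjusted p = 0.634). Rfx5, another X box factor needed for class II and class I transcription, averaged 36.7 ± 3.85 CPM in KO libraries and 35.3 ± 1.47 CPM in WT libraries (edgeR adjusted p = 0.890). The median log2 fold of the 19 was 0.03.

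The other 17 of the 51 members did not pass the low-count filter. Of these, 12 had 0 counts in every library, which allows at most 0.0627 to 0.0722 CPM per library for counting error, and include the pseudogene H2-M10.5-ps1, whose symbol the naming rule keeps. The other 5 had at most 10 counts in any library. They include H2-T3, the thymus leukaemia antigen of intestinal epithelium, and H2-Ke6, a steroid dehydrogenase gene that shares only the region's name. Among tested genes with low counts, H2-Q10, a secreted class I molecule of the liver, had 14, 13 and 23 counts in KO replicates 4, 5 and 6, and 7, 49 and 65 counts in WT replicates 1, 2 and 3 (edgeR adjusted p = 0.712). H2-Q2 and H2-M2 had 4 to 41 counts per library and edgeR adjusted p of 0.847 and 0.963.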

How the data were processed

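The deposited values are the authors' raw read counts by gene symbol in 1 table of 6 library columns (0 left unused). HTSeq 0.9.1, DESeq2 and the mm10 build are named without a role, per the submitters' processing notes. Sources used here give no aligner, annotation or strand setting, and total RNA was isolated with Trizol, per the labels' protocols. Libraries were grouped by title. Every pair differed by more than sampling noise (mean chi-square per gene 21.2 to 58.0), so none was counted as a duplicate.

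All genes were fitted with edgeR 4.0.16 under R 4.3.3, using TMM factors, its default expression filter and robust quasi-likelihood tests, with Benjamini-Hochberg adjustment over 15186 tested genes and a call at an adjusted p under 0.05. Log2 folds are KO over WT, and SEs come from the fold and the F statistic. CPM were computed from the deposited counts with TMM factors. Intervals are 95%, and floors are 3 counts. Positions and exon lengths are from GENCODE M21 (GRCm38, the mm10 assembly), which held all 51 symbols. The procedure was tested on simulated counts with 200 changed genes, every gene being drawn independently. There edgeR called 31 of 67 genes changed 1.5-fold, 47 of 65 changed 2-fold (72.3%) and 60 of 64 changed 4-fold. Beside these calls stood 16 false ones, in a run of 14971 genes.

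Members and lists were chosen with earlier results of these data known. Named were all members of at least 1 mean CPM, with every library's value for 12 set genes and for members with an unadjusted p under 0.05 or non-overlapping groups. Named beside them were other pathway genes at that p and Irf1, Rfx5, Ctss and Ifng, and some items are not reported here. Further genes were chosen after their values were seen. Tried as alternatives were upper-quartile and RLE factors, leaving out the filter, 1 CPM in 3 libraries, DESeq2 1.42.0, limma-voom (limma 3.58.1), no robust estimation, members left out of the TMM factors, and each library left out.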

Additional observations from a re-analysis of the deposited data

How the results depend on the processing

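No paired analysis was possible because the replicate numbers of the genotypes (1 to 3 and 4 to 6) are not shared. In all 14 alternatives edgeR, DESeq2 or limma-voom called 0 members. Few genes were called at all: 89 of 15186 with DESeq2, 119 of 15584 without WT replicate 1 and 10 of 26275 with no low-count filter. Every other alternative called 1 or 2 genes, so 0 called members does not set the members apart from other genes. Members at an unadjusted p under 0.05 numbered 2 in the edgeR fit as reported, 3 with DESeq2 and 3 with no low-count filter (Tapbpl added in both). With 1 library left out they numbered from 0 (without KO replicate 6) to 7 (without WT replicate 1, where 14.9% of all tested genes passed). Those 7 were H2-Oa, higher, and H2-Bl, H2-DMb2, H2-Eb2, H2-M3, H2-Q10 and Tapbpl, lower, with H2-Q10 at the smallest edgeR adjusted p of 0.0817. The median log2 fold ran from -0.03 to 0.09 for class I and from -0.03 to 0.54 for class II when 1 library was left out. H2-Oa stayed positive (0.44 to 0.68) and H2-Bl negative (-0.92 to -0.58).

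Estimates near 0 changed sign, and so did the log2 folds of Cd74 (0.16), H2-Aa (0.18) and H2-Eb1 (0.16), whose ranges were wider. H2-D1 was -0.0044 with RLE factors and with DESeq2 and -0.0081 with upper-quartile factors. Tapbp was -0.00078, -0.00081 and -0.0035 with RLE factors, DESeq2 and upper-quartile factors, and B2m was -0.0023 with upper-quartile factors. With 1 library left out the log2 fold ran from -0.079 to 0.049 for H2-D1, -0.069 to 0.055 for B2m, -0.017 to 0.11 for H2-K1, -0.055 to 0.12 for Nlrc5, -0.056 to 0.057 for Tap2, -0.032 to 0.041 for Tapbp, -0.011 to 0.43 for Cd74, -0.058 to 0.71 for H2-Aa and -0.071 to 0.79 for H2-Eb1. The cause was not tested. Counted without length, H2-K1 and not B2m was the most abundant member. In the simulated counts edgeR called 46.3% of genes changed 1.5-fold and 72.3% of those changed 2-fold. That simulation used the depth and fitted spread of these libraries, with 200 changed genes and every gene drawn independently. Shifts that many genes share between libraries were not simulated, and in the real data edgeR called 1 of 15186 tested genes. The simulated shares may therefore be too high for these libraries.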
